A study of Mus musculus with 24 samples.

Results

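A set of 10 genes of the enzymatic antioxidant system was followed across 24 bulk RNA-seq libraries of MIN6, a β cell line that was established from a mouse insulinoma. They are the glutathione peroxidases Gpx1, Gpx3 and Gpx4, the superoxide dismutases Sod1 and Sod2, the catalase gene Cat, the glutaredoxin gene Glrx, and the thioredoxin genes Txn1, Txnrd1 and Prdx1. These genes, called members below, were chosen with earlier results of these data known. Counts of members called are therefore not those of a neutral set. All 10 were found by gene symbol among the 17696 genes of the count table. The libraries fall into 6 groups of 4, from 3 stable lines made with lentivirus, selected with puromycin and expanded from single clones. Scr cells carried a scrambled hairpin, ZIP cells a miRZip-146a hairpin meant to inhibit miR-146a-5p (same vector type as Scr, with copGFP), and OE cells a shMIMIC construct that overexpresses miR-146a-5p (another vector, with TurboRFP). Each line was sequenced without cytokines and, as Scr+Cy, ZIP+Cy and OE+Cy, after 24 h with cytokines (IL-1β at 5, TNFα at 10 and IFNγ at 100 ng/mL). Construct and clone changed together between the lines (and in OE the vector too), so their effects cannot be told apart, and the libraries do not measure mature miR-146a-5p. By the study's qRT-PCR its level was raised in untreated OE and unchanged in untreated ZIP, both against Scr. With cytokines it rose in all 3 lines, by the largest fold in Scr. The labels give the libraries of each replicate number a tag (P65 to P68 for replicates 1 to 4) that all 6 groups share, without saying what it stands for. Nothing states that the replicates came from separate cultures, so p values measure only the spread between these libraries, which may be technical.

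Superoxide formed by respiration and by cytokine-induced enzymes is converted by superoxide dismutases to hydrogen peroxide, which catalase, the glutathione peroxidases and the peroxiredoxins then remove. Glutathione peroxidases draw their electrons from glutathione and peroxiredoxins from thioredoxin, and NADPH restores both through glutathione reductase (Gsr) and thioredoxin reductase (Txnrd1). Gpx1, Gpx3, Gpx4 and Txnrd1 encode selenoproteins. Pancreatic β cells are known for low catalase and low glutathione peroxidase, which makes them sensitive to peroxide and to inflammatory cytokines.

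The sequence manipulated in ZIP and OE cells is mature miR-146a-5p, shown here with its seed (bases 2 to 8) in capitals because a target site is read from those bases. It lies at chr11:43374435-43374456 on the minus strand (GRCm38.p6, sequence from RefSeq).

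mmu-miR-146a-5p: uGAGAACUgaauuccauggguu

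The complement of the seed, AGTTCTC, was searched in the longest GENCODE M21 3′ UTR of each gene. Such a match was found in 1862 of 15437 genes in the table (12.1%) and in 2 of the 10 members, Sod2 and Txn1. The matches are given below with the site in capitals, 5′ to 3′ on the mRNA strand. The first in Sod2 is at chr17:13015571-13015577 (bases 400 to 406 of the UTR, plus strand). The second in Sod2 is at chr17:13018698-13018704, beyond the end of Sod2 in the count table. The match in Txn1 is at chr4:57943611-57943617 (bases 288 to 294, minus strand) and is followed by an A. The other 8 members held no such letters in these UTRs, which says nothing about other kinds of site.

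Sod2, first match: aaccaaatAGTTCTCttttctat
Sod2, second match: caggaagcAGTTCTCctttgatc
Txn1: caaagttcAGTTCTCagcatcca

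RefSeq promoter windows, from 250 bases before to 50 after a transcript start, were available for all 10 members (16 windows). Each motif was searched on both strands. The NF-κB site (kB site, known to respond to IL-1β and TNFα) was in 8.5% of the 32851 windows of all genes. Among the members it was in 1 window each of 5, Gpx1, Gpx3, Sod2, Cat and Prdx1. The core of the antioxidant response element, TGACNNNGC, through which NRF2 is known to act, was in 12.4% of all windows. Among the members it was in 1 window each of 3, Sod1, Txnrd1 and Prdx1. The interferon-γ activated site, TTCNNNGAA, was in 8.3% of all windows, in 1 window of Sod2 and in 2 of Txnrd1. Gpx4 has 4 windows, Txnrd1 3 and Glrx 2, so a count of members is not comparable with a share of windows. No match overlapped another motif's match. The windows of Gpx1 and Sod2 are shown with the kB site in capitals, since among the members called with cytokines in Scr these 2 had the largest log2 fold changes. Gpx3, Cat and Prdx1 also hold a kB site and were not called there (edgeR adjusted p of 0.242, 0.909 and 0.129). Txn1 and Txnrd1 were called there and their windows hold no kB site. The windows of Txnrd1 and Prdx1 are shown with the antioxidant response element core in capitals. The levels of these 2 had a Pearson r of 0.77 over the libraries. Sod1, the third member with this core, had an r of 0.03 with Txnrd1 and 0.40 with Prdx1. Txn1, whose window lacks the core, had an r of 0.86 with Txnrd1 and 0.89 with Prdx1. A match is a description of the letters and not evidence of binding. Builds are GRCm38.p6 and all 4 windows are on the plus strand: Gpx1 at chr9:108338830-108339129, Sod2 at chr17:13007589-13007888, Txnrd1 at chr10:82858956-82859255 (one of 3 windows of that gene) and Prdx1 at chr4:116685349-116685648.

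Gpx1: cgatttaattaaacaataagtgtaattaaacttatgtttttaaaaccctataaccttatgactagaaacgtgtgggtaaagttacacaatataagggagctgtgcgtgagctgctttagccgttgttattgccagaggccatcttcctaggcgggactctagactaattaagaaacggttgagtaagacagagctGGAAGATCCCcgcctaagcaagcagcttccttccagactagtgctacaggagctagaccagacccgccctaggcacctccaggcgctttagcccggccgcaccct
Sod2: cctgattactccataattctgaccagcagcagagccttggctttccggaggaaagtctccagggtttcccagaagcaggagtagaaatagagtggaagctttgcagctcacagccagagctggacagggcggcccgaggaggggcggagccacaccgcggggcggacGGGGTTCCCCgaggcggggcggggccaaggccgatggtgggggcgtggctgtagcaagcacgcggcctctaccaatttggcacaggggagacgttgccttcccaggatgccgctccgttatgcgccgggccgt
Txnrd1: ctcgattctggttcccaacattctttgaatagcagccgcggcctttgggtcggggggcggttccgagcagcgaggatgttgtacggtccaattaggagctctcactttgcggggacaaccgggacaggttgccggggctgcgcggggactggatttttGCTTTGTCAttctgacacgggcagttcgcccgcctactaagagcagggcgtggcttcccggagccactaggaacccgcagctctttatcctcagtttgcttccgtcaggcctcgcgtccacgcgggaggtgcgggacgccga
Prdx1: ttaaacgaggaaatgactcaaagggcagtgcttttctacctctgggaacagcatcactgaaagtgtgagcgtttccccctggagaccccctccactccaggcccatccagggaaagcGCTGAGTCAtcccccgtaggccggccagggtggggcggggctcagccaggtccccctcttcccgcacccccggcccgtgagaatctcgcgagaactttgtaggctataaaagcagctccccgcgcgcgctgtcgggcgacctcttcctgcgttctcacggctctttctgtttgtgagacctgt

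Depth was between 26657792 and 37168232 reads assigned to genes per library. Levels are CPM, reads scaled to a common library total after TMM normalization. In each group, 9 or more of 10 β cell markers had a mean of at least 1 CPM, with Ins2 at 10900 CPM in Scr. That bar alone does not settle the cell type, since some markers of other cells passed it too. In Scr, Gcg averaged 288 CPM and the nerve marker Mbp 49.8. The levels of the β cell markers differed between lines. In OE, the means of Ins1, Ins2, Iapp, Slc2a2, Ucn3 and Slc30a8 were above Scr, and those of Pdx1, Nkx6-1, Mafa and G6pc2 below. Ins1 averaged 674 CPM in Scr and 7670 in OE, and Mafa 1050 and 716. Slc2a2 averaged 24 CPM in Scr and 140 in ZIP. Fibroblast and endothelial markers, which MIN6 should lack, summed to 17.7 CPM in Scr replicate 1, 51.1 in ZIP replicate 1 and 58.1 in Scr+Cy replicate 1 and to 5.58 or less in each other library. Without these 3 libraries, the number of members called (described below) was 4 in place of 5 for cytokines in ZIP, 4 in place of 5 for OE+Cy against Scr+Cy and 3 in place of 4 for the difference between the OE and Scr responses, and was the same number in the other 6 comparisons. Exocrine and duct markers summed to between 86.2 and 193 CPM in OE and OE+Cy, from Spp1 and Krt19, and to 6.84 or less in the other groups. Markers of other islet cells summed to between 246 and 369 CPM in Scr, 46 and 56 in OE, 134 and 190 in Scr+Cy, and 9.09 and 34.7 in OE+Cy. Within that list Gcg, the glucagon gene, was lower in OE (38.2 to 44.2 CPM) than in Scr (246 to 369) and also lower in Scr+Cy (134 to 190). Ppy was at 0 in Scr and at 6.04 to 10.9 in OE, and Sst at 0.0287 to 0.186 in Scr and 0.816 to 1.93 in OE. These values differ between OE and Scr, and their part in the OE results was not tested. In bulk libraries, fewer cells of a type and less RNA per cell cannot be told apart.

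**Figure D1:**
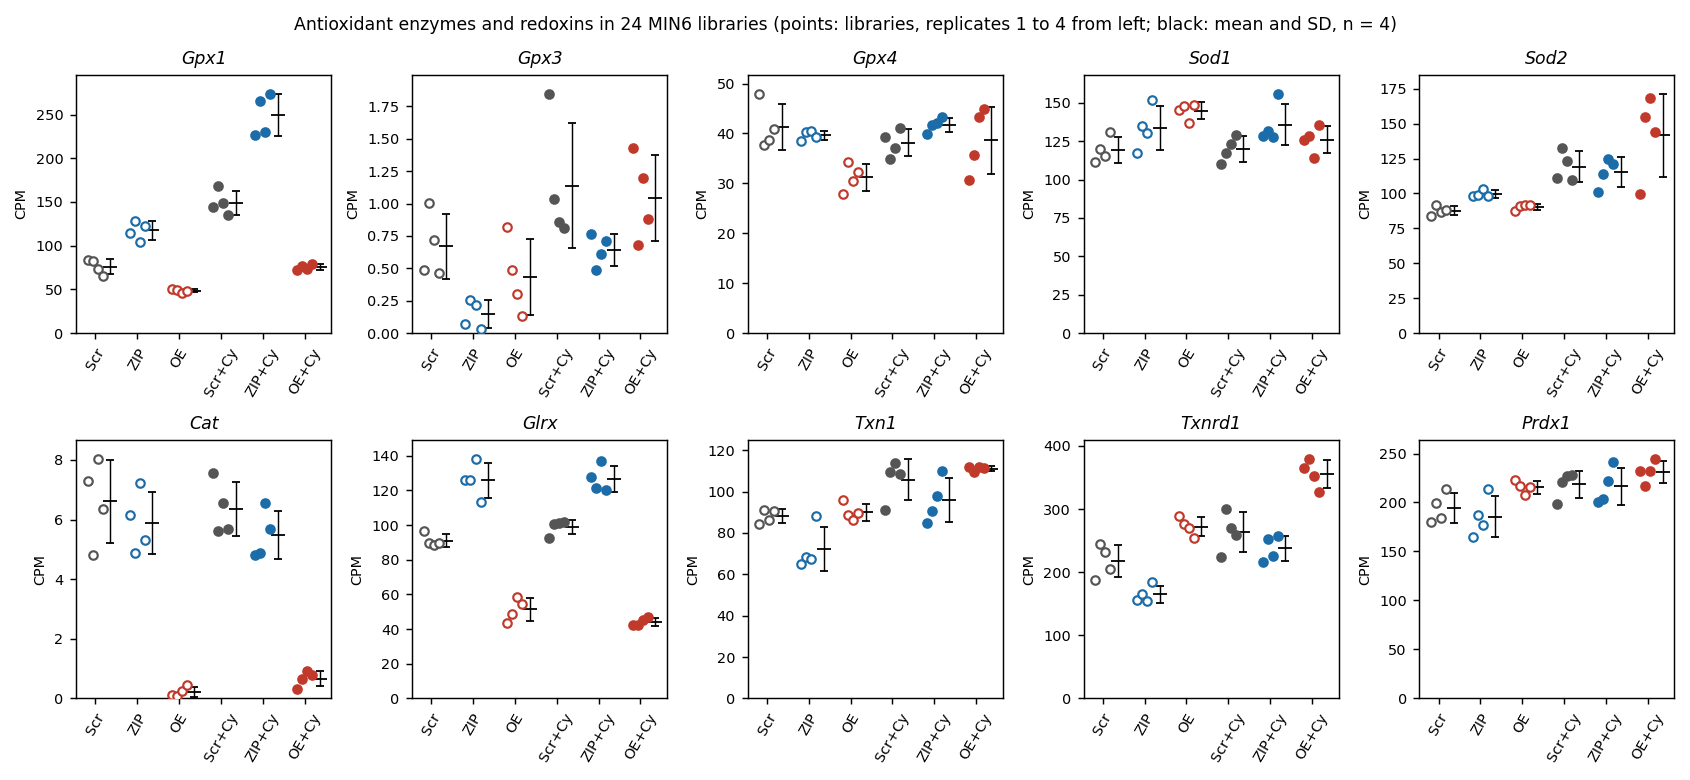
Level of each of the 10 genes in CPM (vertical axes, each from 0) in the 6 groups. Open points are libraries without cytokines and filled points libraries with cytokines, with replicates 1 to 4 from left to right in each group, and black bars give mean and SD (n = 4). Gpx1 lay between 226.9 and 273.9 CPM in ZIP+Cy, above all libraries of the other groups, and Cat lay under 1 CPM in all 8 OE and OE+Cy libraries.

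Per kilobase of exon in the annotated gene, Sod1 was the most abundant member in Scr (189 ± 13.2 CPM per kb, SD, n = 4), followed by Prdx1 (137 ± 10.9) and Txn1 (83.8 ± 3.15). The peroxidases Gpx1 (72.8 ± 8.11) and Gpx4 (41.5 ± 4.68) lay below them, with Glrx (68.5 ± 2.83) and Txnrd1 (60.1 ± 7.16) between those peroxidases. Sod2 stood at 22.9 ± 0.87 CPM per kb, a value that depends on how much of its long 3′ UTR is counted. The scarcest were Cat (2.59 ± 0.546) and Gpx3 (0.442 ± 0.167). Among neighbours in this order, the libraries of Gpx1 and Glrx overlapped, as did those of Glrx and Txnrd1, and the others did not.

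Between ZIP and Scr, Gpx1 and Glrx were higher in ZIP, and Gpx3, Txn1 and Txnrd1 were lower. So 5 of the 10 members were called at a Benjamini-Hochberg adjusted p under 0.05 (edgeR quasi-likelihood test over all genes), 2 higher and 3 lower. Of all 17696 genes, 28.3% were called in that comparison, 13.5% higher and 14.8% lower. The median log2 fold change of the members was −0.07 and that of all genes 0. At the study's thresholds (fold change of at least 1.5 and unadjusted p under 0.05), 2 members passed, Gpx1 and Gpx3, against 14.9% of all genes. The study chose Gpx1 and Glrx for follow-up on these samples, so their directions in ZIP and OE are not independent evidence. Its qRT-PCR upheld a difference for Gpx1, reported as higher in ZIP cells with cytokines. Glrx was not among the genes that its qRT-PCR upheld. The study drew Glrx from computed targets of miR-146a-5p and stated that Gpx1 was not such a target. The seed search above found no match in the UTR of either gene, and it does not cover other kinds of site.

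Between OE and Scr, Gpx1, Gpx4, Cat and Glrx were lower in OE, and Sod1 and Txnrd1 were higher. These 6 called members (2 higher, 4 lower) stand against 50.1% of all genes, 24.5% higher and 25.6% lower. The median of all 10 members was −0.19 on the log2 scale and that of all genes 0. At the study's thresholds 3 members passed (Gpx1, Cat and Glrx, all lower), against 25.7% of all genes. With cytokines in both lines, OE+Cy against Scr+Cy called 5 members: Sod2 and Txnrd1 were higher and Gpx1, Cat and Glrx lower. Of all genes, 53.4% were called there, 26% higher and 27.4% lower, and 28.5% passed the study's thresholds, which 3 members met. ZIP+Cy against Scr+Cy called Gpx1 and Glrx, both higher, against 28.1% of all genes (13% higher, 15.1% lower), and the study's thresholds were met by 1 member, Gpx1, and by 15.8% of all genes. Comparisons with the same line as reference share its 4 libraries.

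**Figure D2:**
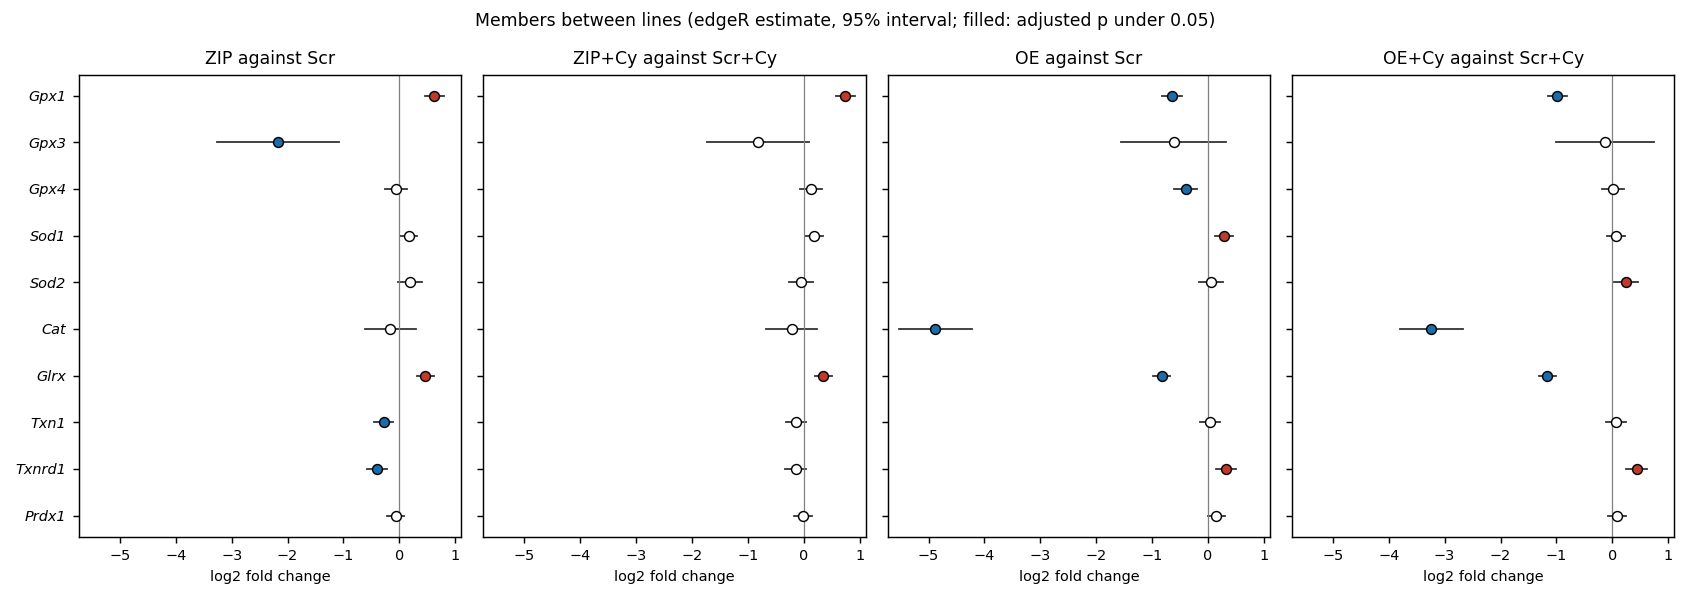
Log2 fold change of each member between lines (horizontal axis, shared scale), without and with cytokines. Points are edgeR estimates from 4 libraries per group, bars are 95% intervals, and filled points have an adjusted p under 0.05 (red higher, blue lower). Cat stands apart in OE at −4.88 and in OE+Cy at −3.24, and Gpx1 is higher in ZIP and lower in OE, without and with cytokines.

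In Scr cells, cytokines raised Gpx1, Sod2, Txn1 and Txnrd1. No member was called lower, so 4 of 10 were called, all higher, where 17.8% of all genes were called, 10.5% higher and 7.33% lower. Only Gpx1 met the study's thresholds, as did 10.6% of all genes. In ZIP cells, 5 members were called, all higher (Gpx1, Gpx3, Txn1, Txnrd1 and Prdx1), against 26.4% of all genes (13.6% higher, 12.8% lower). The study's thresholds were met by 2 of them, Gpx1 and Gpx3, and by 12.5% of all genes. In OE cells, 9 members were called, with 7 higher (Gpx1, Gpx3, Gpx4, Sod2, Cat, Txn1 and Txnrd1) and 2 lower (Sod1 and Glrx). Of all genes, 44.6% were called in OE (23% higher, 21.5% lower) and 21% passed the study's thresholds, which 4 members met (Gpx1, Gpx3, Sod2 and Cat). The median log2 fold change of the members was 0.22 in Scr, 0.22 in ZIP and 0.35 in OE, and that of all genes 0.00, −0.01 and 0.02.

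The differences between these responses were tested as interactions in the same model. The ZIP response differed from the Scr response for 0 members by edgeR, and 0 had an unadjusted p under 0.05. DESeq2 also gave 0. Of all genes, 0.0565% were called (10 genes), and 3.29% passed the study's thresholds, which no member met. With the replicate number as a block, 45 genes were called and again 0 members. The interval of this difference was −0.12 to 0.36 for Gpx1 and −0.01 to 0.52 for Txnrd1 on the log2 scale. The OE response differed from the Scr response for 4 members: the log2 change with cytokines was greater in OE than in Scr for Gpx4 and Cat, and less for Glrx and for Gpx1, which rose in both lines. Of all genes, 20% were called (9.65% higher, 10.3% lower), and 12.1% passed the study's thresholds, which only Cat met among the members. The number of members fell to 2 without OE replicate 1, OE replicate 4, Scr+Cy replicate 2 or OE+Cy replicate 3. For cytokines in Scr, it fell from 4 to 2 without Scr replicate 1, Scr+Cy replicate 2 or Scr+Cy replicate 3.

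**Figure D3:**
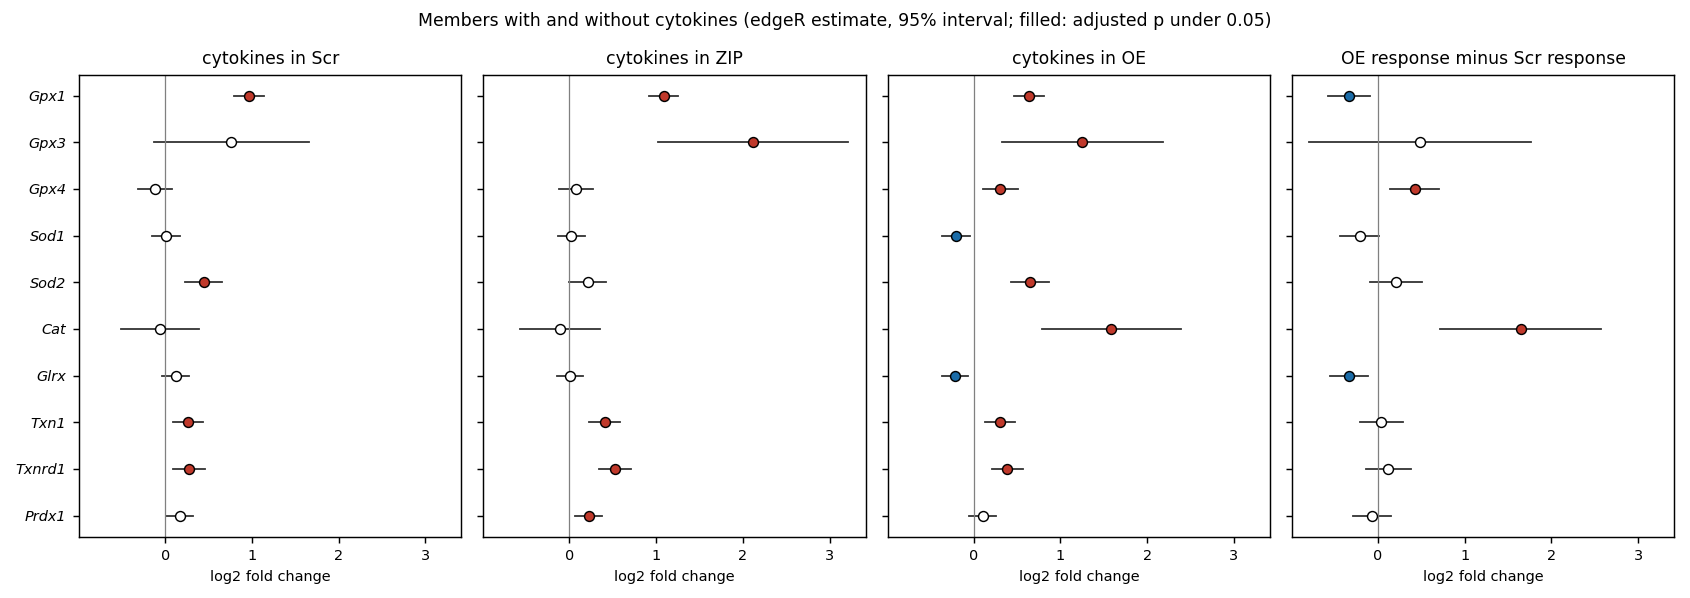
Log2 fold change of each member with cytokines in Scr, ZIP and OE cells, and the difference between the OE and Scr responses (horizontal axes, shared scale). Points are edgeR estimates from 4 libraries per group, bars are 95% intervals, and filled points have an adjusted p under 0.05 (red higher, blue lower). Gpx1 is filled and higher in all 3 lines. Among the lines Cat is filled in OE only, where its level was lowest, and it is also filled in the difference between the responses.

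Gpx1, the cytosolic and mitochondrial glutathione peroxidase, lies at chr9:108339080-108340344 (mm10, plus strand). Its level in Scr was 83.44, 82.45, 73.04 and 65.5 CPM in replicates 1 to 4, and in ZIP 114.6, 128.2, 104.3 and 122.4. In OE it was 50.38, 49.54, 45.88 and 48.73 CPM. The 3 lines did not overlap: each ZIP library lay above, and each OE library below, all 4 Scr libraries. The log2 fold change was 0.62 ± 0.08 (SE) in ZIP against Scr (adjusted p = 1.73e-06) and −0.65 ± 0.08 in OE against Scr (adjusted p = 4.56e-07). With cytokines the 4 libraries read 144.2, 168.1, 148.6 and 135.5 CPM for Scr+Cy, 226.9, 266, 230.1 and 273.9 for ZIP+Cy, and 72.62, 77.15, 73.14 and 79.04 for OE+Cy. Each line rose above its own untreated libraries without overlap, and OE+Cy lay within the range of untreated Scr. Cytokines raised Gpx1 1.96-fold in Scr (0.97 ± 0.08 log2, adjusted p = 1.62e-09), 2.12-fold in ZIP (1.09 ± 0.08, adjusted p = 1.75e-10) and 1.55-fold in OE (0.63 ± 0.08, adjusted p = 8.72e-07).

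Among cytokine-treated cells, Gpx1 was 1.67-fold higher in ZIP+Cy than in Scr+Cy (adjusted p = 1.05e-07) and 1.98-fold lower in OE+Cy (adjusted p = 3.73e-10). The response of Gpx1 in OE minus that in Scr was −0.34 ± 0.12 on the log2 scale (adjusted p = 0.0421). That call was lost without Scr replicate 3 or 4, OE replicate 1, 2 or 4, Scr+Cy replicate 2 or 3, or OE+Cy replicate 1 or 3, with differences between −0.34 and −0.27 and adjusted p values between 0.0591 and 0.104. With DESeq2's size factors in edgeR it was −0.32 (adjusted p = 0.0503). Ordered by level, ZIP+Cy stood clear of Scr+Cy, Scr+Cy of ZIP, and ZIP of Scr. Scr and OE+Cy overlapped, and OE+Cy stood clear of OE. The genes whose log2 CPM followed Gpx1 most closely over the 24 libraries were Galr3 (Pearson r = 0.96), Hfe (0.96) and Iah1 (0.95), among the genes with a mean of at least 10 CPM. Such correlations are descriptions, since all points come from the same 24 libraries in 6 groups.

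The stretch of chromosome 9 around Gpx1 was raised as a whole in ZIP. Of the 76 genes with a mean of at least 10 CPM that start within 5 Mb of Gpx1, 76 were higher in ZIP than in Scr and 74 were called higher. Their median log2 fold change was 0.81. Over the 9738 genes of that expression the median was −0.01, and 16.6% were called higher. Gpx1's own change of 0.62 was below that of 62 of its 76 neighbours. The 3 nearest on each side changed by 0.86 (Nicn1), 1.18 (Tcta), 0.70 (Rhoa), 0.84 (Usp4), 0.95 (Ccdc71) and 0.72 (Usp19), so the nearest genes moved as much as Gpx1 or more. With cytokines in both lines the picture was the same, with a median of 0.82 and 75 of 76 neighbours higher in ZIP+Cy.

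In the comparisons of OE with Scr and of cytokines within a line, the neighbours of Gpx1 did not move together. In OE against Scr their median was −0.10 and only 4 of 76 changed by less than Gpx1's −0.65 (that is, fell further). Nicn1 was at −0.44 and Usp19 at −0.23 there, and Rhoa at 0.01. With cytokines the median of the neighbours was −0.01 in Scr, −0.01 in ZIP and 0.01 in OE, and 4, 4 and 5 of the 76 exceeded Gpx1. No other member had more than 68.4% of its neighbours higher in either comparison of ZIP with Scr or ZIP+Cy with Scr+Cy. Over the 9738 genes, 47.4% and 48.3% were higher in these 2 comparisons.

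**Figure D4:**
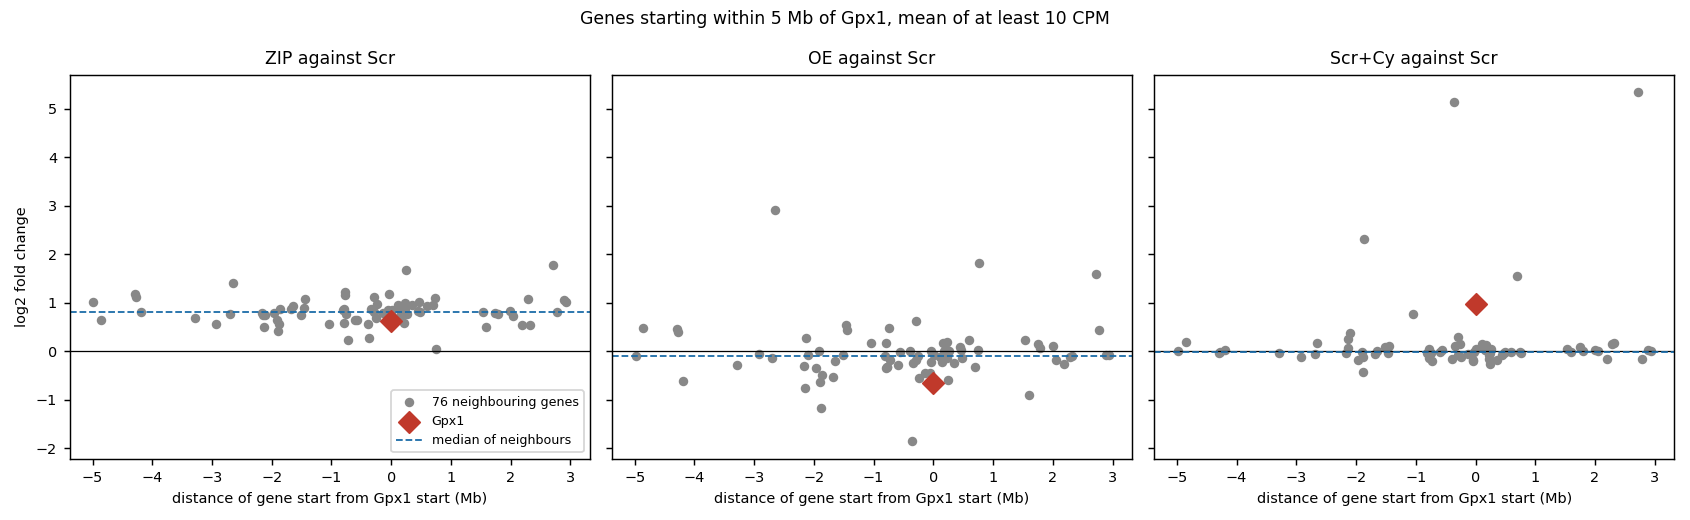
Log2 fold change (vertical axis) against distance of each gene's start from the start of Gpx1 in Mb (horizontal axis) for 76 genes with a mean of at least 10 CPM. Grey points are neighbouring genes, the red diamond is Gpx1, and the dashed line is the median of the neighbours. In ZIP against Scr all points lie above 0 (median 0.81), while in OE and with cytokines in Scr most neighbours lie near 0, a few lie far from it, and Gpx1 stands at −0.65 and 0.97.

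Gpx4, which reduces lipid peroxides in membranes, lies at chr10:80047166-80056439 (plus strand). In Scr it was at 47.96, 37.63, 38.63 and 40.85 CPM, and in ZIP at 38.42, 40.19, 40.51 and 39.24. In OE it was at 27.95, 34.33, 30.43 and 32.26 CPM, below all Scr libraries. It did not pass the test in ZIP (−0.06 ± 0.09) and was 1.32-fold lower in OE than in Scr (−0.40 ± 0.09, adjusted p = 0.000962). In OE+Cy it was at 30.61, 35.69, 43.2 and 44.99 CPM, and 1 of these libraries lay within the OE range. The rise with cytokines in OE (0.31 ± 0.09, adjusted p = 0.0101) was not called without OE+Cy replicate 3 (0.24, adjusted p = 0.0637) or OE+Cy replicate 4 (0.21, adjusted p = 0.0793). In Scr+Cy and ZIP+Cy, Gpx4 stayed between 34.95 and 43.34 CPM and was not called. The OE response exceeded the Scr response by 0.42 ± 0.13 (adjusted p = 0.0271). It was not called without Scr replicate 1, OE replicate 1, Scr+Cy replicate 2, or OE+Cy replicate 3 or 4 (0.32 to 0.38, adjusted p between 0.0596 and 0.0923), nor without the 3 libraries with fibroblast markers (0.36, adjusted p = 0.0846), nor when only the 4 groups compared were fitted (0.40, adjusted p = 0.08). Acot13 (r = 0.88), Fth1 (0.85) and Sirt2 (0.84) followed Gpx4 most closely. Gpx4-ps2 and another copy share over 95% of at least 200 bases with Gpx4 and are not in the table, so its count is uncertain.

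Gpx3, the secreted plasma glutathione peroxidase, lies at chr11:54902854-54910387 (plus strand) and had few reads. In Scr it had 18, 35, 23 and 15 reads (0.4856, 1.006, 0.7188 and 0.4645 CPM), and in ZIP 2, 7, 7 and 1 reads (0.07318, 0.2553, 0.217 and 0.0336 CPM). ZIP lay below Scr without overlap (−2.17 ± 0.52, adjusted p = 0.00232). In ZIP+Cy the 4 libraries were at 0.7682, 0.484, 0.6132 and 0.7094 CPM, all above ZIP (2.12 ± 0.52, adjusted p = 0.0036). OE was at 0.816, 0.4897, 0.3035 and 0.131 CPM and OE+Cy at 1.425, 0.6773, 1.2 and 0.8809, with overlap (1.25 ± 0.44, adjusted p = 0.0234). This last call was lost without OE replicate 3 or 4 or OE+Cy replicate 1 or 3 (0.96 to 1.17, adjusted p between 0.0587 and 0.0819). Scr+Cy was at 1.848, 1.033, 0.8579 and 0.811 CPM and did not pass the test against Scr (0.76 ± 0.43, adjusted p = 0.242). The highest of these, Scr+Cy replicate 1, was the library with the highest fibroblast markers, and their part in this level was not tested. Ino80c (r = 0.88), Nudcd3 (0.85) and Dera (0.84) were most like Gpx3 in pattern.

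Sod1, the copper and zinc superoxide dismutase of the cytosol, lies at chr16:90220762-90226333 (plus strand). Its libraries ranged from 110.1 CPM in Scr+Cy to 155.9 in ZIP+Cy. In Scr it was at 111.7, 119.9, 115 and 130.8 CPM and in OE at 145.6, 148.1, 137.1 and 148.8, without overlap (0.28 ± 0.08, adjusted p = 0.00361). ZIP reached 117.5, 134.9, 130.4 and 151.9 CPM, which overlapped Scr and did not pass (0.16 ± 0.08, adjusted p = 0.117), although it passed without ZIP replicate 1 (0.22, adjusted p = 0.0359) and in the fit blocked by replicate number (0.16, adjusted p = 0.0147). In OE+Cy, Sod1 was at 125.6, 128.3, 114.1 and 135.2 CPM, all below OE (−0.20 ± 0.08, adjusted p = 0.0327). That call was lost without OE replicate 1, 2 or 4 or OE+Cy replicate 1 or 3 (−0.20 to −0.17, adjusted p between 0.0538 and 0.092). In fits with the replicate number as a block, Sod1 was called in ZIP+Cy against Scr+Cy (0.18, adjusted p = 0.00865) and in the OE response minus the Scr response (−0.21, adjusted p = 0.0284), neither of which was called without the block. DESeq2 called the first of these too (0.19, adjusted p = 0.0427). Ndufv2 (r = 0.91), Emc3 (0.89) and Bex3 (0.87) followed Sod1 most closely. Sod1 overlaps Scaf4 on the opposite strand over 654 bases and has a near-identical pseudogene, Gm8566, so its count is uncertain.

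Sod2, the manganese superoxide dismutase of mitochondria and a known NF-κB target, lies at chr17:13007839-13018119 (plus strand). In Scr it was at 83.87, 91.83, 86.54 and 88.14 CPM and in Scr+Cy at 110.9, 132.8, 123.2 and 109.7, without overlap (1.36-fold, 0.44 ± 0.10 log2, adjusted p = 0.00283). In OE it was at 87.22, 91.13, 91.65 and 91.92 CPM and in OE+Cy at 99.58, 155.1, 168.2 and 144.1 (1.57-fold, 0.65 ± 0.10, adjusted p = 1.26e-05). All OE+Cy libraries lay above OE, but replicate 1 lay far below the other 3. In ZIP the 4 libraries were at 98.1, 99.12, 103.4 and 97.94 CPM and in ZIP+Cy at 100.9, 114.1, 125 and 121.2, with overlap (0.21 ± 0.10, adjusted p = 0.138). ZIP lay above Scr in every library but did not pass (0.19 ± 0.10, adjusted p = 0.189). Fitted with only the groups compared, both passed, at 0.19 (adjusted p = 0.0157) for ZIP and 0.22 (adjusted p = 0.0342) for ZIP+Cy against ZIP. The OE response did not differ from the Scr response by the test (0.20, 95% interval −0.10 to 0.51), but did without OE+Cy replicate 1 (0.34, adjusted p = 0.012).

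The higher Sod2 in OE+Cy than in Scr+Cy (0.25 ± 0.10, adjusted p = 0.041) was not called without Scr+Cy replicate 1, 3 or 4 or OE+Cy replicate 2, 3 or 4 (0.17 to 0.27, adjusted p between 0.0511 and 0.17). Without the 3 libraries with fibroblast markers it was 0.22 (adjusted p = 0.119), and fitted with only the groups compared 0.26 (adjusted p = 0.13). The genes whose pattern was most like Sod2 were Tsc22d3 (r = 0.94), Acadl (0.91) and Trmt1l (0.895). The first Sod2 match to the miR-146a-5p seed lies in the counted part of the gene, and its change in OE against Scr was 0.05 ± 0.10 (adjusted p = 0.74).

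Cat, the peroxisomal catalase, lies at chr2:103453904-103485153 (minus strand) and showed the largest difference of any member. In Scr it was at 7.284, 4.801, 8.032 and 6.349 CPM, from 167 to 270 reads per library. In OE it was at 0.1209, 0.08161, 0.2483 and 0.4585 CPM, from 4, 3, 9 and 14 reads. OE lay below Scr without overlap, 29.4-fold lower (−4.88 ± 0.31, adjusted p = 2.66e-12). ZIP was at 6.147, 4.887, 7.222 and 5.309 CPM, within the range of Scr (−0.17 ± 0.22, adjusted p = 0.622). With cytokines, Cat stayed between 4.819 and 7.575 CPM in Scr+Cy and ZIP+Cy and was not called. In OE+Cy it was at 0.3127, 0.6435, 0.9158 and 0.7897 CPM from 9, 19, 29 and 26 reads, which overlapped OE and was higher (1.59 ± 0.38, adjusted p = 0.00144). That rise left Cat 9.42-fold below Scr+Cy (adjusted p = 3.22e-10). The OE response exceeded the Scr response by 1.64 ± 0.44 (adjusted p = 0.00972), a call kept in each fit that left out 1 library.

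Of all 9738 genes with a mean of at least 10 CPM, 50.4% were higher in OE than in Scr, with a median of 0.004. Of the 24 such genes around Cat, 29.2% were higher and 17 were lower. Their median change was −0.15 on the log2 scale, against −4.88 for Cat itself. The genes with the most similar pattern were Nfia, Vangl1 and Lats2 (r = 0.98 each).

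Glrx, the cytosolic glutaredoxin that removes glutathione from protein thiols, lies at chr13:75839885-75850151 (plus strand). Scr cells had Glrx at 96.66, 89.67, 88.51 and 89.44 CPM, in ZIP at 126, 125.9, 138.1 and 113.2, and in OE at 43.7, 48.75, 58.41 and 54.72. The lines did not overlap, and their order was that of Gpx1. Glrx was 1.38-fold higher in ZIP (0.47 ± 0.07, adjusted p = 1.87e-05) and 1.77-fold lower in OE (−0.83 ± 0.07, adjusted p = 1.08e-09). Unlike Gpx1, it did not pass the test with cytokines in Scr (0.12 ± 0.07, adjusted p = 0.287) or ZIP (0.01 ± 0.07, adjusted p = 0.971). Scr+Cy was at 92.69, 100.7, 100.9 and 101.6 CPM, ZIP+Cy at 127.6, 121.4, 136.8 and 120, and OE+Cy at 42.39, 42.27, 45.35 and 46.75. ZIP+Cy was 1.28-fold above Scr+Cy (adjusted p = 0.00052) and OE+Cy 2.24-fold below it (adjusted p = 2.95e-12), again without overlap.

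In OE, Glrx fell with cytokines by 0.22 ± 0.07 on the log2 scale (adjusted p = 0.0186), a call lost without OE replicate 3 (−0.15, adjusted p = 0.107) or OE replicate 4 (−0.19, adjusted p = 0.0644) and when only OE and OE+Cy were fitted (−0.22, adjusted p = 0.0611). The OE response was lower than the Scr response by 0.34 ± 0.10 (adjusted p = 0.022). Without OE replicate 3 or 4 that difference was −0.27 (adjusted p = 0.0615) and −0.31 (adjusted p = 0.0519). The 19 genes around Glrx moved the other way in OE: 18 were higher than in Scr, with a median of 0.27. Of all 9738 genes with a mean of at least 10 CPM, 50.4% were higher in OE than in Scr, with a median of 0.004. Pcyox1 (r = 0.98), Kcnj12 (0.98) and Pcdhb18 (0.975) followed Glrx most closely over the libraries, and among the members Cat did (0.88).

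Txn1, the cytosolic thioredoxin, lies at chr4:57943373-57956411 (minus strand). Scr cells had Txn1 at 84.14, 91.16, 86.45 and 90.37 CPM and in ZIP at 65.02, 68.42, 67.41 and 88.3, where the first 3 lay below Scr and replicate 4 within it. ZIP was lower (−0.28 ± 0.08, adjusted p = 0.0128), a call lost without ZIP replicate 1 (−0.24, adjusted p = 0.056). OE was at 95.92, 88.6, 86.25 and 89.4 CPM, 3 of them within the range of Scr (0.03 ± 0.08, adjusted p = 0.783). Cytokines raised Txn1 in ZIP to 84.86, 90.82, 98.04 and 109.8 CPM, with overlap (0.41 ± 0.09, adjusted p = 0.000742) and in OE to 111.7, 109.2, 111.9 and 111.2, without overlap (0.30 ± 0.08, adjusted p = 0.00476). In Scr+Cy it was at 91.03, 109.6, 113.6 and 108.7 CPM (0.26 ± 0.08, adjusted p = 0.0298). The Scr call was lost without Scr replicate 1 or 3 or Scr+Cy replicate 2, 3 or 4 (0.23 to 0.26, adjusted p between 0.057 and 0.1). Txn1 carries the match to the seed shown above, and its values are those above for ZIP and OE. Acsl5 and Pum3 (r = 0.92 each) and Psma4 (0.92) had the most similar patterns. A pseudogene, Txn-ps1, shares over 95% of at least 200 bases with it, so its count is uncertain.

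Txnrd1, the selenoprotein that reduces thioredoxin with NADPH, lies at chr10:82833951-82897724 (plus strand). Scr cells had Txnrd1 at 187.9, 245.2, 232.7 and 205.5 CPM, in ZIP at 156.4, 165.5, 154.2 and 183.9, and in OE at 288.9, 276.5, 269.8 and 253.8. The lines did not overlap and stood in the reverse order of Gpx1 and Glrx, lower in ZIP (−0.40 ± 0.09, adjusted p = 0.00107) and higher in OE (0.32 ± 0.09, adjusted p = 0.00352). With cytokines, Scr+Cy was at 223.9, 300.5, 269.3 and 258.9 CPM, ZIP+Cy at 216, 252.4, 225.7 and 257.3, and OE+Cy at 365.9, 379.4, 352.6 and 327.4. ZIP and OE rose without overlap (0.53 ± 0.09, adjusted p = 6.32e-05, and 0.39 ± 0.09, adjusted p = 0.000756). The rise in Scr (0.27 ± 0.09, adjusted p = 0.0315) came with overlap and was not called without Scr replicate 1 or 4 or Scr+Cy replicate 2 or 3 (0.20 to 0.26, adjusted p between 0.0743 and 0.146), nor when only Scr and Scr+Cy were fitted (0.28, adjusted p = 0.0766). OE+Cy was 1.35-fold above Scr+Cy (adjusted p = 0.000174).

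The gene whose pattern was closest to Txnrd1 over the 24 libraries was Gsr (r = 0.97), the glutathione reductase, followed by Gfus and Rrs1 (0.95 each). Gsr was lower in ZIP than in Scr (−0.24 ± 0.06, adjusted p = 0.00239), higher in OE (0.27 ± 0.06, adjusted p = 0.000429) and higher with cytokines in all 3 lines (0.20 in Scr, 0.39 in ZIP and 0.39 in OE). Its mean was 75.82 ± 5.21 CPM in Scr and 119.7 ± 6.87 in OE+Cy (SD, n = 4). Txnrd1 overlaps Eid3 on its own strand and Gm38560 on the other, both at under 1 CPM on average.

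Prdx1, the peroxiredoxin that takes electrons from thioredoxin, lies at chr4:116685599-116700000 (plus strand). Scr cells had Prdx1 at 180, 199.7, 184.5 and 214.1 CPM, in ZIP at 164.4, 187.2, 176.6 and 213.4, and in OE at 222.9, 216.8, 207.3 and 215.4. The groups overlapped and neither line passed against Scr, at −0.07 ± 0.07 in ZIP (adjusted p = 0.533) and 0.15 ± 0.07 in OE (adjusted p = 0.1). OE passed without Scr replicate 4 (0.20, adjusted p = 0.0398) and in the fit blocked by replicate number (0.15, adjusted p = 0.0269). With cytokines, Prdx1 ranged from 198 to 228.1 CPM in Scr+Cy, from 200.4 to 241.1 in ZIP+Cy and from 216.5 to 244.4 in OE+Cy. It was called in ZIP (0.23 ± 0.07, adjusted p = 0.0268) and not in Scr or OE, though no difference between the responses was called. The ZIP call was lost without ZIP replicate 1 or 3 or ZIP+Cy replicate 3 or 4 (0.17 to 0.21, adjusted p between 0.0654 and 0.121), without the 3 libraries with fibroblast markers (0.17, adjusted p = 0.0913) and when only ZIP and ZIP+Cy were fitted (0.23, adjusted p = 0.0692). With the replicate number as a block, the rise in Scr was called too (0.17, adjusted p = 0.0352). Over the libraries Prdx1 followed the proteasome subunit genes Psma4 (r = 0.93) and Psma2 (0.925) and Ranbp1 (0.90), and among the members it followed Txn1 (0.89) and Txnrd1 (0.77). Txn1 and Txnrd1 had an r of 0.86. Prdx1 has 2 near-identical pseudogenes, so its count is uncertain.

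Around these 10 genes, 59 further redox genes of 6 lists were in the table, and the named ones had the largest called changes where 1 or both groups averaged 1 CPM or more. In ZIP against Scr, 18 were called (11 higher, 7 lower), where 28.3% of all genes were, among them Gpx7, an endoplasmic reticulum peroxidase (0.82 ± 0.16, from 3.364 to 5.973 CPM), and Txnip, the thioredoxin inhibitor (0.61 ± 0.19, from 8.664 to 13.27 CPM). Txnip was not called without ZIP replicate 1 (0.49, adjusted p = 0.0833). In OE against Scr, 35 were called (19 higher, 16 lower), where 50.1% of all genes were. Gpx2, the peroxidase of gut epithelium, rose from 0.1671 to 7.405 CPM (5.42 ± 0.29), Xdh, xanthine dehydrogenase, from 0.2752 to 6.856 CPM (4.604 ± 0.313), and Sod3, the extracellular dismutase, from 0.08123 to 1.465 CPM (4.11 ± 1.13). The Scr levels rest on few reads per library (4 to 8 for Gpx2, 2 to 13 for Xdh, 1 to 4 for Sod3), so these folds are loose. Sod3 had 88, 32, 50 and 29 reads in OE. It had 83 in Scr+Cy replicate 1, the library with the highest fibroblast markers, and 0 to 2 in the other Scr+Cy libraries. The part of those markers in Sod3 was not tested. Msrb3 (−2.52 ± 0.42), Txnrd3 (−1.28 ± 0.21) and Sesn1 (−0.88 ± 0.07) were lower, and Msrb3 was at −3.42 without OE replicate 2. By role, the numbers called in OE were 7 of 9 other peroxidases and dismutases (5 higher, 2 lower), 8 of 16 other thioredoxin and glutaredoxin genes (3 higher, 5 lower), 7 of 8 genes of glutathione synthesis and reduction (4 higher, 3 lower), 7 of 9 of NADPH supply (4 higher, 3 lower), 4 of 8 of selenoprotein synthesis (2 higher, 2 lower) and 2 of 9 oxidant sources (1 higher, 1 lower), each to be read against the same 50.1%. The medians of all 59 were 0.04 in ZIP and 0.07 in OE, against 0 for all genes.

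With cytokines, 16 of the 59 were called in Scr (10 higher, 6 lower), 26 in ZIP (17 higher, 9 lower) and 33 in OE (20 higher, 13 lower), where 17.8%, 26.4% and 44.6% of all genes were. Nos2, the inducible nitric oxide synthase, led in each line, from 0.1241 to 24.98 CPM in Scr, from 1.033 to 87.82 in ZIP and from 0.2953 to 791.2 in OE. These untreated levels rest on few reads, 0 to 20 per library apart from 104 in ZIP replicate 4, so the folds are loose. Without ZIP replicate 4 the untreated ZIP mean was 0.2121 CPM and the log2 change 8.56 in place of 6.37. Without Scr replicate 3 that in Scr was 8.91 in place of 7.68, and without OE replicate 4 that in OE was 12.08 in place of 11.41. Txnip rose 1.79-fold in Scr, 1.81-fold in ZIP and 4.71-fold in OE. In ZIP the cystine carrier Slc7a11 rose by 0.75 ± 0.23, a call lost without ZIP replicate 1 (0.68, adjusted p = 0.0539). In OE, Gpx2 rose further (1.49 ± 0.19), and Txnrd2, the mitochondrial thioredoxin reductase (−1.01 ± 0.09), and Prdx4, the peroxiredoxin of the endoplasmic reticulum (−0.74 ± 0.08), fell.

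Among cytokine-treated lines, 21 of the 59 were called in ZIP+Cy against Scr+Cy (14 higher, 7 lower), where 28.1% of all genes were, led by Nos2 (1.82 ± 0.38), Gpx7 (1.03 ± 0.17) and Me1, malic enzyme (0.81 ± 0.09), with Nnt, the mitochondrial transhydrogenase, lower (−0.68 ± 0.09). In OE+Cy against Scr+Cy, 37 were called (20 higher, 17 lower), where 53.4% of all genes were, led by Gpx2 (6.90 ± 0.28), Nos2 (4.99 ± 0.42) and Xdh (3.61 ± 0.27), with Sesn1 (−0.85 ± 0.07), Txnrd2 (−0.83 ± 0.09) and Msrb2 (−0.78 ± 0.11) lower. Gpx2 had only 3 to 7 reads per library in Scr+Cy. The OE response differed from the Scr response for 15 of the 59 (7 higher, 8 lower), against 20% of all genes. That number fell to 9 without the 3 libraries with fibroblast markers. The ZIP response differed from the Scr response for 0 of the 59 by edgeR and by DESeq2, with 3 at an unadjusted p under 0.05.

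**Figure D5:**
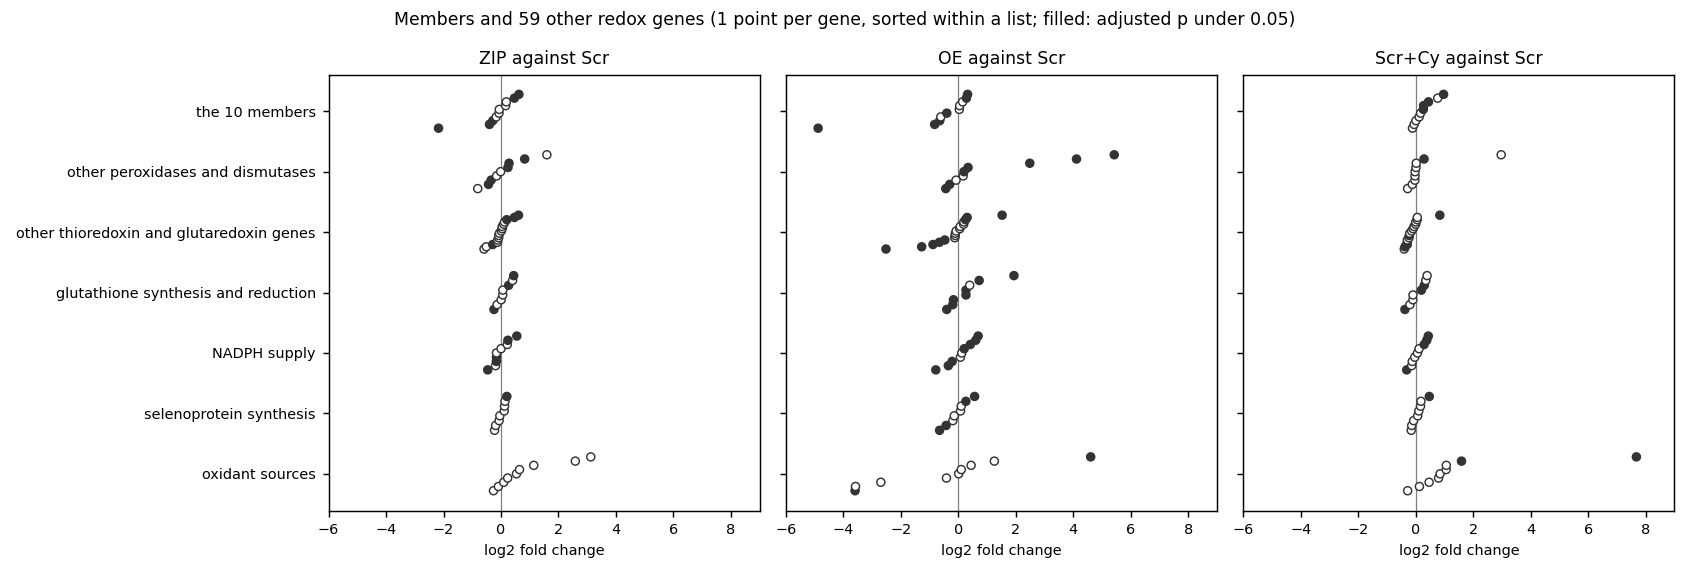
Log2 fold change (horizontal axis) of the 10 members and of 59 other redox genes in 6 lists (rows) for ZIP against Scr, OE against Scr and Scr+Cy against Scr. Each point is 1 gene, sorted within its list, and filled points have an adjusted p under 0.05 (edgeR, 4 libraries per group). Cat at −4.88 and Gpx2 at 5.42 are the extremes in OE, and Nos2 at 7.68 that with cytokines in Scr.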

How the data were processed

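Total RNA of 24 MIN6 libraries was sequenced after poly(A) mRNA library preparation. According to the study's methods, reads were aligned to mm10 with STAR and quantified against RefSeq transcripts in Partek Flow, and genes with fewer than 10 reads were removed. The submitters' processing notes name STAR 2.7.8a and Partek 11.0.24.0204. The authors deposited estimated counts per gene (30.3% of values were not whole), used here after rounding. The authors also deposited a normalized signal, equal within 1% to the counts divided by 1 factor per library (values of at least 20 reads), used only for that check. Depth was 26657792 to 37168232 assigned reads (median 30701023). It sets the precision of low genes such as Gpx3.

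All 17696 genes were fitted in 1 model of 6 group means with edgeR 4.0.16 (TMM, glmQLFit, glmQLFTest, R 4.3.3), with calls at a Benjamini-Hochberg adjusted p under 0.05. SEs are the log2 fold change over the root of F. The test was checked on simulated data with independent libraries and the same setting of spread for every gene. That check does not cover libraries that deviate together, as described below. Alternatives were DESeq2 1.42.0, its size factors, a low-count filter, the study's thresholds, only the groups compared, a replicate block and leaving out each library. Leaving out the 3 libraries with fibroblast markers over 10 CPM was chosen after seeing the data. The members and lists were chosen with earlier results of these data known. The named genes were the 10 members, up to 3 called wider redox genes per direction and comparison (fold change of at least 1.5, and 1 CPM or more on average in 1 or both groups), the 3 genes most correlated with each member, and the 3 nearest neighbours of Gpx1 on each side.

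Same-numbered libraries deviated together (r over 9738 genes, each of 4 pairs over 0.1) for Scr+Cy and Scr (0.366 to 0.612), ZIP+Cy and ZIP (0.345 to 0.451), OE+Cy and OE (0.279 to 0.542), and ZIP+Cy and Scr+Cy (0.163 to 0.467). The labels give same-numbered libraries a shared tag (P65 to P68) of unstated meaning, so the pairing rests on that tag and on these correlations, and blocked values stand beside the results they change. Coordinates are mm10 (GRCm38), with GENCODE M21 exons and 3′ UTRs and RefSeq promoter and miRNA sequences. Protein sequences were not used here.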

Additional observations from a re-analysis of the deposited data

Results flagged for a closer look

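In 5 of 60 sets of 4 libraries (10 genes in 6 groups), 1 library stood apart from the other 3 by Dixon's test, where chance flags about 1 in 20 groups. Sod1 was at 155.9 CPM in ZIP+Cy replicate 4, against 127.6 to 131.3 in the others. Sod2 was at 87.22 CPM in OE replicate 1, against 91.13 to 91.92. Glrx was at 96.66 CPM in Scr replicate 1, against 88.51 to 89.67, and at 92.69 CPM in Scr+Cy replicate 1, against 100.7 to 101.6. Txn1 was at 88.3 CPM in ZIP replicate 4, against 65.02 to 68.42.

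The cytokine response in OE minus that in Scr was called by edgeR for 4 members on the log2 scale: −0.335 for Gpx1, 0.421 for Gpx4, 1.644 for Cat and −0.337 for Glrx.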

How the results depend on the processing

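Under the alternatives, no result reversed, and 1351 of 1420 single-member values kept their side of the threshold, while 58 lost it and 11 gained it. Counts of members called stayed within 1.5 times in 136 of 151 cases, and those of the 59 wider redox genes in 142 of 151. At the study's thresholds the members called were 2 in ZIP, 3 in OE, 1, 2 and 4 with cytokines in Scr, ZIP and OE, 1 in ZIP+Cy and 3 in OE+Cy against Scr+Cy, and 1 for the OE response minus the Scr response. The wider redox genes were 3, 16, 4, 6, 12, 8 and 19 in the same 7 comparisons and 1 for the ZIP response minus the Scr response. These thresholds both add a fold limit and use unadjusted p values. Without the 3 libraries with fibroblast markers, the wider redox genes called for the OE response minus the Scr response were 9. Leaving out 1 library gave 2 to 4 members for cytokines in Scr and 2 to 4 for the OE response minus the Scr response. The cause was not tested. With the replicate number as a block, all-gene calls rose in every comparison. For cytokines they rose from 3151 to 3998 in Scr, from 4674 to 5601 in ZIP and from 7884 to 8557 in OE. For the response minus the Scr response they rose from 10 to 45 in ZIP and from 3538 to 4493 in OE. The shares of all genes given in the report come from the fit without the block. For pairs of groups in which not every same-numbered pair correlated over 0.1 (r of 0.038 to 0.696 for ZIP and Scr, −0.107 to 0.283 for OE and Scr, 0.021 to 0.182 for OE+Cy and Scr+Cy), the block called Sod1 in ZIP (0.16, adjusted p = 0.0147) and Prdx1 in OE (0.15, adjusted p = 0.0269). It changed no other member's call beside those given in the report. Depth limits Gpx3, at 1 to 60 reads per library, and Cat in OE, at 3 to 14.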
